A study of Rattus norvegicus with 9 samples.

Results

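The genes described here make, break down and sense prostaglandins, lipid messengers of inflammation. They are 10 named genes (Ptgs1, Ptgs2, Ptges, Ptges2, Ptges3, Ptgis, Hpgd, Pla2g2a, Pla2g4a and Ptger4), found by symbol among the 17588 genes of an RNA-seq table of rat primary chondrocytes. All 10 were in the table, and all 10 passed the filter on low values that left 11732 genes for testing. The cells were wild type in every group and came in 3 groups of 3 libraries. The first group received interleukin-1β (IL-1β) and shared a transwell with dermal fibroblasts, which sat in the upper chamber above the chondrocytes. The second received IL-1β in ordinary culture, and the third was the control in ordinary culture without IL-1β. The labels name no strain, age, IL-1β dose or time for these cells. They also do not say whether libraries of a group came from separate animals or cultures, so a p-value here weighs a difference only against library-to-library spread, possibly technical.

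Prostaglandin synthesis starts when a phospholipase frees arachidonic acid from membrane lipid. Cyclooxygenases turn it into prostaglandin H, from which terminal synthases make prostaglandin E or prostacyclin, and 15-hydroxyprostaglandin dehydrogenase begins the breakdown of the active products. In cartilage, prostaglandin E is known as a product of chondrocytes stimulated with inflammatory cytokines. Messenger RNA was measured, not enzyme activity or prostaglandin.

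Expression is given in FPKM, which divides a gene's fragments by its transcript length and by the size of the library and so allows genes to be set beside each other. A gene was called higher or lower at an adjusted p under 0.05 in limma on log2(FPKM + 1), and folds are ratios of mean FPKM. The FPKM sum per library was 809839 to 811665 in co-culture, 796262 to 832248 with IL-1β and 771058 to 782435 in control. No library stood apart from its group: Pearson's r of log2(FPKM + 1) across tested genes was at least 0.994 within each group. Of the chondrocyte markers, 12 were in the table. Type II collagen (Col2a1) stood at 229 to 263 FPKM in co-culture, 164 to 173 with IL-1β and 1011 to 1075 in control, while Matn1 was under 1 FPKM in every co-culture and IL-1β library and at 3.54 to 4.32 in control. The 12 markers' summed FPKM was 639.7 to 697 in co-culture, 457 to 476 with IL-1β and 1971 to 2056 in control.

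With IL-1β against control, 6 of the 10 genes were called higher and 2 lower. Of all tested genes 26.5% were called higher and 20.2% lower. The phospholipase genes Pla2g2a and Pla2g4a, cyclooxygenase-2 (Ptgs2), all but 1 of the prostaglandin E synthase genes (Ptges and Ptges2) and prostacyclin synthase (Ptgis) rose, while cyclooxygenase-1 (Ptgs1) and the dehydrogenase Hpgd fell. With co-culture against IL-1β alone, 4 of the 10 were called lower (Pla2g2a, Pla2g4a, Ptgs2 and Ptges) and 3 higher (Ptgs1, Hpgd and Ptges3). The shares of all tested genes were 10.1% lower and 11.9% higher. With co-culture against control, 4 were called higher (Pla2g2a, Pla2g4a, Ptgs2 and Ptges) and 2 lower (Ptgs1 and Hpgd), against 21.8% higher and 12.2% lower among all tested genes. The 3 comparisons share libraries, so the calls in one are not independent of those in another. The genes were listed with earlier results of these data known, and these counts are descriptions.

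**Figure D1:**
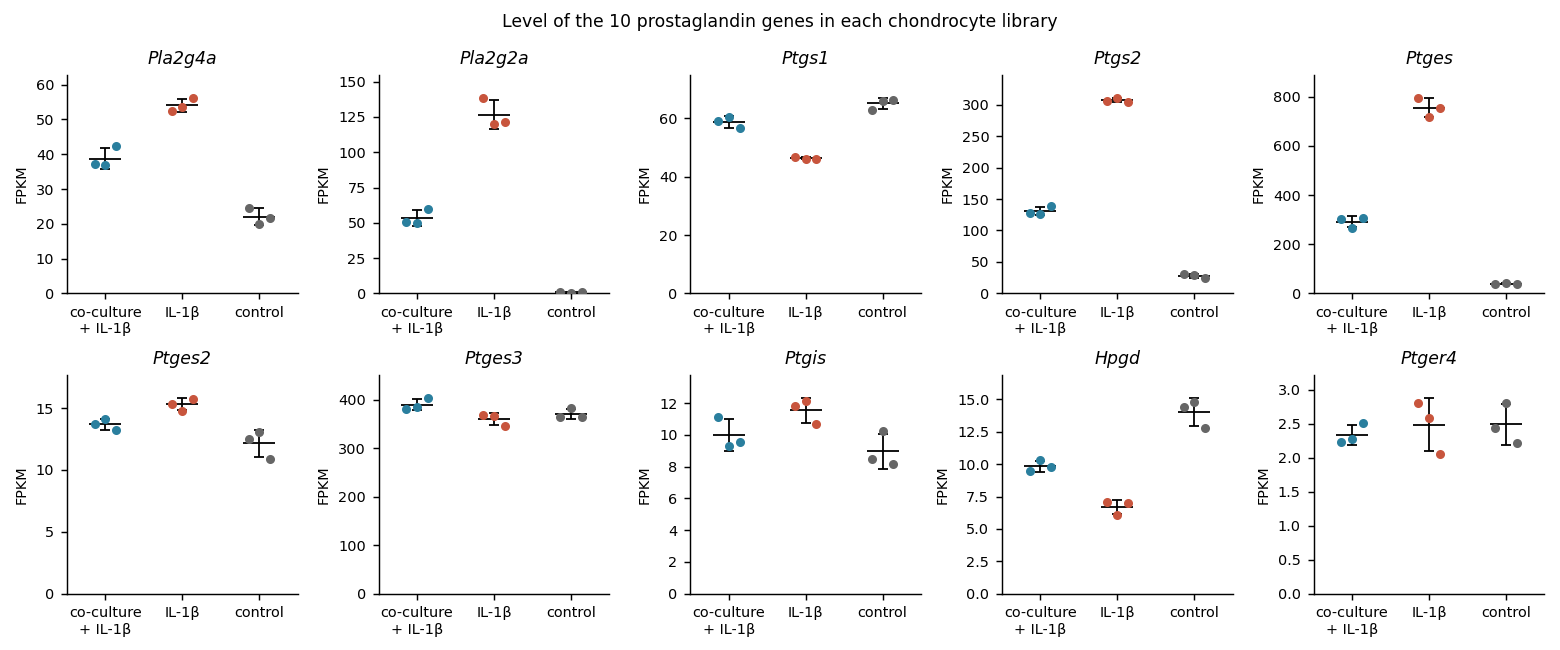
FPKM (linear axis from 0) of each of the 10 genes in every library, by group. Points are libraries, the black bar is the mean and the whiskers the SD (n = 3 per group). Ptgs2, Ptges, Pla2g2a and Pla2g4a sat highest in the 3 IL-1β libraries and between them and control in co-culture, Ptgs1 and Hpgd were lowest with IL-1β, and Ptger4 overlapped in all groups.

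The balance of higher and lower calls over all genes moved with normalization. For IL-1β against control, 56.7% of called genes were higher as deposited and 41.4% with libraries rescaled to a common FPKM sum. The share was 40.7% after quantile normalization and 49.9% with median-of-ratios scaling. For co-culture against IL-1β it was 54.0% as deposited, and 53.9%, 55.7% and 47.2% with the common sum, quantile normalization and median-of-ratios scaling. For co-culture against control it was 64.2% as deposited, and 43.4%, 44.1% and 49.8% with the common sum, quantile normalization and median-of-ratios scaling. None of the calls on Pla2g2a, Pla2g4a, Ptgs1, Ptgs2, Ptges or Hpgd changed under these scalings.

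Cyclooxygenase-1 and cyclooxygenase-2 catalyse the same step, and their genes moved in opposite directions. Ptgs2, the inducible form, stood at 128, 126 and 139 FPKM in co-culture, 305, 311 and 305 with IL-1β and 30.55, 28.6 and 24.6 in control. The 3 groups did not overlap, with IL-1β highest and co-culture in between. Ptgs2 was about 11-fold higher with IL-1β than in control (log2 change 3.42 ± 0.07 SE, adjusted p = 1.35e-10). It was 2.34-fold lower in co-culture than with IL-1β alone (-1.22 ± 0.07, adjusted p = 1.97e-06) and 4.69-fold higher in co-culture than in control (2.20 ± 0.07, adjusted p = 8.02e-09).

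Ptgs1, usually described as the constitutive form, stood at 59.2, 60.6 and 56.6 FPKM in co-culture, 46.8, 46.2 and 46.0 with IL-1β and 62.98, 65.95 and 66.4 in control. The groups again did not overlap, but in the reverse order. Ptgs1 was 1.40-fold lower with IL-1β than in control (log2 change -0.48, 95% interval -0.56 to -0.41, adjusted p = 1.57e-06). In co-culture it was 1.27-fold higher than with IL-1β (0.34, 0.26 to 0.41, adjusted p = 9.71e-05) and 1.11-fold lower than in control (-0.14, -0.22 to -0.07, adjusted p = 0.0085).

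The more abundant cyclooxygenase transcript differed between groups, Ptgs2 in co-culture and with IL-1β and Ptgs1 in control. Of the summed FPKM of both genes, Ptgs2 made up 67.6% to 71.0% in co-culture, 86.7% to 87.1% with IL-1β and 27.0% to 32.7% in control. Per library, the ratio of Ptgs2 to Ptgs1 was 2.08 to 2.45 in co-culture, 6.52 to 6.72 with IL-1β and 0.37 to 0.485 in control. On the log2(FPKM + 1) scale this ratio was 3.90 higher with IL-1β than in control, -1.56 in co-culture relative to IL-1β and 2.34 higher in co-culture than in control. Each of these 3 differences had p = 0.1 in a two-sided exact permutation test, the smallest that 3 against 3 libraries can give.

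The terminal prostaglandin E synthases are microsomal synthase 1 (Ptges), which is inducible and coupled to cyclooxygenase-2, the membrane-associated synthase 2 (Ptges2), and the cytosolic synthase Ptges3, also known as the Hsp90 co-chaperone p23. Ptges stood at 305, 265 and 308 FPKM in co-culture, 795, 717 and 755 with IL-1β and 38.55, 41.1 and 39.1 in control, with no overlap between groups. It was 19.1-fold higher with IL-1β than in control (log2 change 4.22 ± 0.06 SE, adjusted p = 2.10e-11). In co-culture it was 2.58-fold lower than with IL-1β (-1.37 ± 0.06, adjusted p = 4.62e-07) and 7.39-fold higher than in control (2.85 ± 0.06, adjusted p = 5.50e-10).

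The other PGE synthase genes moved far less. Ptges2 stood at 13.7, 14.1 and 13.2 FPKM in co-culture, 15.35, 14.8 and 15.8 with IL-1β and 12.5, 13.04 and 10.9 in control. Its libraries did not overlap between groups, yet only the 1.26-fold rise with IL-1β over control was called (0.31, 95% interval 0.18 to 0.45, adjusted p = 0.00214). In co-culture its log2 difference was -0.15 from IL-1β (-0.29 to -0.01, adjusted p = 0.112) and 0.16 from control (0.02 to 0.30, adjusted p = 0.0696). Ptges3 stood at 380.2, 385 and 403 FPKM in co-culture, 367, 365 and 345 with IL-1β and 363, 382 and 364 in control, where control overlapped both other groups and co-culture lay above IL-1β. Its call in co-culture against IL-1β was small (1.08-fold, 0.12, 0.04 to 0.19, adjusted p = 0.0408) and was lost in 12 of 19 other settings. Leaving out 1 library lost it for control replicate 1 (adjusted p = 0.0546) or 3 (0.0555), IL-1β replicate 2 (0.0601) or 3 (0.138) and co-culture replicate 2 (0.0775) or 3 (0.127). Ptges3 also has a pseudogene and close relatives in the RefSeq table, between which the counting could have divided reads. With IL-1β against control its log2 difference was -0.04 (-0.12 to 0.04, adjusted p = 0.363; called lower, at adjusted p = 0.0232, with libraries rescaled to a common FPKM sum), and with co-culture against control it was 0.07 (-0.004 to 0.15, adjusted p = 0.136).

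Ptges3 was high in every group, and the make-up of the 3 PGE synthase transcripts differed mainly in Ptges. Ptges held 39.9% to 43.6% of their summed FPKM in co-culture, 65.4% to 67.6% with IL-1β and 9.31% to 9.44% in control. Ptges3 held 54.4% to 58.0% in co-culture, 30.9% to 33.3% with IL-1β and 87.6% to 87.9% in control. Ptges2 did not exceed 3.02% in any library.

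**Figure D2:**
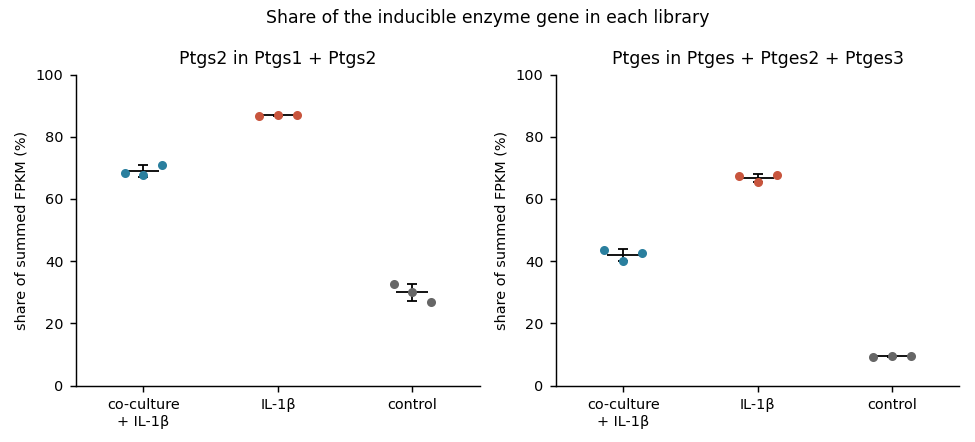
Share of summed FPKM (%) taken by Ptgs2 among both cyclooxygenase genes and by Ptges among the 3 PGE synthase genes, for each library by group. Points are libraries, with mean and SD (n = 3). Both shares were highest with IL-1β (86.7% to 87.1% and 65.4% to 67.6%), lowest in control and between them in co-culture.

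Ptgs2 and Ptges had the largest changes among the cyclooxygenase and PGE synthase genes, so the 250 bases before their annotated starts are shown (RefSeq, build GRCr8; gene strand, 5′ to 3′). Capitals mark matches, on either strand, to 6 motifs: the TATA box TATAAA, the cyclic AMP response element core TGACGT, the AP-1 motif TGANTCA, the C/EBP motif TTNNGNAA, the GC box GGGCGG and the NF-κB consensus. The first lies at chr13:64713813-64714062 on the plus strand and the second at chr3:34586988-34587237 on the minus strand.
Ptgs2: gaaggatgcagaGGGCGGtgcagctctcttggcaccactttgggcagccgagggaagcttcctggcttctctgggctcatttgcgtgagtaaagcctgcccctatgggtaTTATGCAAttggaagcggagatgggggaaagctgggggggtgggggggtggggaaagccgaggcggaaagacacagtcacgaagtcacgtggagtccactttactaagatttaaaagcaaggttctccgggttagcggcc
Ptges: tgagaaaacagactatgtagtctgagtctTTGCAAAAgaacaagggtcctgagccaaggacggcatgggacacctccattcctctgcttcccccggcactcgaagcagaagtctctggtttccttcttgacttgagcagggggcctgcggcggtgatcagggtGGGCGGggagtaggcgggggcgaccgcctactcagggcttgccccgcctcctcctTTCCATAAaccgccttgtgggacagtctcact
In Ptgs2 the capitals are a GC box from -238 to -233 and a C/EBP match from -140 to -133, counted from the base before the start as -1. In Ptges they are C/EBP matches from -221 to -214 and from -32 to -25 and a GC box from -87 to -82. The C/EBP motif was present in 37.2% and the GC box in 30.5% of 33469 rat promoters of this length, so both matches are common. The other motifs, held by 12.9% (TATA box), 6.95% (cyclic AMP response element), 6.34% (AP-1) and 6.33% (NF-κB consensus) of all promoters, were not in these windows. These are matches of letters and say nothing of binding. Of the 10 genes 8 had a promoter in the RefSeq table (not Ptges2 or Ptgis). Among them 4 held a C/EBP match (Ptgs2, Ptges, Pla2g2a and Pla2g4a) and 4 a GC box (Ptgs2, Ptges, Ptges3 and Hpgd). The letters TATAAA were in 1 (Pla2g4a, from -108 to -103 on the strand opposite to the gene) and an NF-κB consensus in 1 (Ptges3).

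Both phospholipase A2 genes rose with IL-1β and were lower in co-culture. Pla2g2a encodes a secreted phospholipase known from inflamed joint fluid. It stood at 50.8, 49.6 and 59.5 FPKM in co-culture, 138, 120.1 and 121 with IL-1β and only 0.71, 0.42 and 1.06 in control. No groups overlapped, and the control libraries were near the filter of 1 FPKM, which the gene passed through the other groups. The ratio of means was 173 for IL-1β over control (log2 change 6.22 ± 0.12 SE on the log2(FPKM + 1) scale, adjusted p = 1.37e-10) and 73.0 for co-culture over control (4.98 ± 0.12, adjusted p = 1.82e-09). Both ratios rest on a low and imprecise control level, and the log2 changes became 7.33 and 6.08 with a pseudocount of 0.1. Between the other groups, co-culture was 2.38-fold lower than IL-1β (-1.23 ± 0.12, adjusted p = 9.61e-05). In the RefSeq gene table Pla2g2a overlaps its neighbour Pla2g5, another secreted phospholipase gene. No source used here says whether the counting kept strand, so reads of the pair could not be told apart with certainty. The same limit holds for Ptges2, Ptges3 and Ptger4, which overlap LOC120101523, LOC120093524 and LOC120100730 in that order. Pla2g5 stood at 0.39 to 0.70 FPKM in co-culture, 1.29 to 1.69 with IL-1β and 0.06 to 0.26 in control.

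Pla2g4a encodes cytosolic phospholipase A2α, which is selective for arachidonic acid, and lies next to Ptgs2 in the RefSeq gene table. It stood at 37.1, 36.8 and 42.3 FPKM in co-culture, 52.4, 53.6 and 56.2 with IL-1β and 24.7, 20.03 and 21.6 in control. No groups overlapped. It was 2.45-fold higher with IL-1β than in control (1.26 ± 0.08, adjusted p = 4.66e-07). In co-culture it was 1.40-fold lower than with IL-1β (-0.47 ± 0.08, adjusted p = 0.00168) and 1.75-fold higher than in control (0.78 ± 0.08, adjusted p = 3.08e-05).

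Hpgd, the gene of 15-hydroxyprostaglandin dehydrogenase, had the same group order as Ptgs1 and the opposite order to Ptgs2, Ptges, Pla2g2a and Pla2g4a. It stood at 9.46, 10.3 and 9.78 FPKM in co-culture, 7.04, 6.08 and 7.03 with IL-1β and 14.4, 14.8 and 12.8 in control, again without overlap. It was 2.08-fold lower with IL-1β than in control (-0.96 ± 0.07, adjusted p = 1.99e-06). In co-culture it was 1.47-fold higher than with IL-1β (0.49 ± 0.07, adjusted p = 0.000826) and 1.42-fold lower than in control (-0.47 ± 0.07, adjusted p = 0.00064). The ratio of Ptges to Hpgd was 25.8 to 32.2 in co-culture, 107 to 118 with IL-1β and 2.67 to 3.06 in control. On the log2(FPKM + 1) scale it was 5.18 higher with IL-1β than in control, -1.86 in co-culture relative to IL-1β and 3.32 higher in co-culture than in control. Each of these had p = 0.1 in the exact permutation test, its smallest value.

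Ptgis, prostacyclin synthase, changed little. It stood at 11.1, 9.31 and 9.56 FPKM in co-culture, 11.8, 12.1 and 10.7 with IL-1β and 8.49, 10.2 and 8.16 in control. The IL-1β and control libraries did not overlap, and the 1.29-fold rise was called (0.34 ± 0.09, adjusted p = 0.0115). The co-culture libraries overlapped both other groups, with log2 differences of -0.19 from IL-1β (95% interval -0.39 to 0.01, adjusted p = 0.162) and 0.15 from control (-0.06 to 0.35, adjusted p = 0.247).

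**Figure D3:**
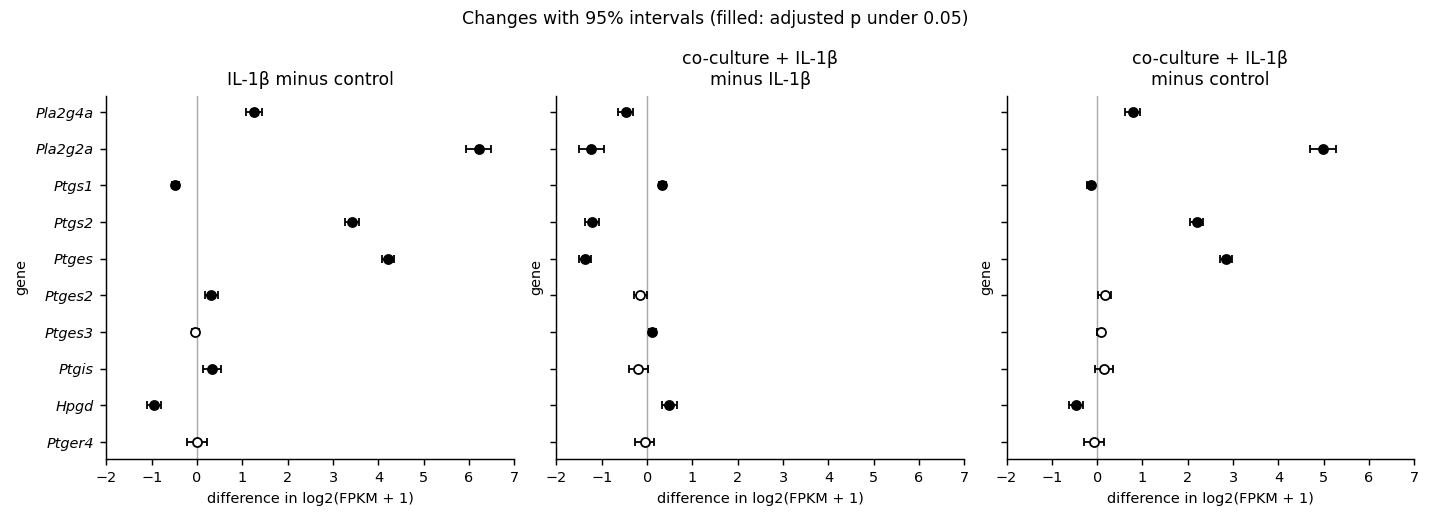
Difference in log2(FPKM + 1) of each gene in the 3 comparisons, with 95% intervals from limma; filled points passed an adjusted p of 0.05 and open points did not. With IL-1β against control, Pla2g2a (6.22), Ptges (4.22) and Ptgs2 (3.42) lie farthest right and Hpgd (-0.96) farthest left. In co-culture against IL-1β, Ptges (-1.37), Pla2g2a (-1.23) and Ptgs2 (-1.22) lie farthest left.

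The order of the 10 levels differed between groups. In co-culture it was Ptges3, Ptges, Ptgs2, Ptgs1, Pla2g2a, Pla2g4a, Ptges2, Ptgis, Hpgd and Ptger4, where Ptgs1 overlapped with Pla2g2a and Ptgis with Hpgd. With IL-1β it was Ptges, Ptges3, Ptgs2, Pla2g2a, Pla2g4a, Ptgs1, Ptges2, Ptgis, Hpgd and Ptger4, and no neighbours overlapped. In control it was Ptges3, Ptgs1, Ptges, Ptgs2, Pla2g4a, Hpgd, Ptges2, Ptgis, Ptger4 and Pla2g2a, where Ptgs2 overlapped with Pla2g4a and Hpgd with Ptges2.

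Ptger4 encodes EP4, a receptor for prostaglandin E that raises cyclic AMP. It stood at 2.23, 2.27 and 2.51 FPKM in co-culture, 2.81, 2.59 and 2.05 with IL-1β and 2.44, 2.81 and 2.22 in control, and all groups overlapped. The log2 difference was -0.01 for IL-1β against control (95% interval -0.22 to 0.21, adjusted p = 0.969), -0.06 for co-culture against IL-1β (-0.28 to 0.16, adjusted p = 0.728) and -0.06 for co-culture against control (-0.28 to 0.16, adjusted p = 0.667). These intervals leave room for changes of about that size in either direction at this low level.

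Of 5 other tested genes listed with the receptors, 2 rose and 2 fell with IL-1β, 1 was higher and 1 lower in co-culture than with IL-1β, and 2 were higher and 1 lower in co-culture than in control (medians -0.09, -0.09 and -0.07). Of all tested genes 26.5% rose and 20.2% fell with IL-1β against control. The shares higher and lower were 11.9% and 10.1% for co-culture against IL-1β, and 21.8% and 12.2% for co-culture against control. Ptgfrn, on this list, encodes a protein that binds the prostaglandin F receptor and is not itself a receptor. It stood at 91.9 ± 0.548 FPKM in co-culture, 86.2 ± 1.38 with IL-1β and 96.7 ± 1.44 in control, with calls of -0.16 for IL-1β against control (adjusted p = 0.000423), 0.09 for co-culture against IL-1β (adjusted p = 0.0276) and -0.07 for co-culture against control (adjusted p = 0.0471). The prostacyclin receptor gene Ptgir stood at 4.91, 5.34 and 5.01 FPKM in co-culture, 7.82, 5.46 and 6.46 with IL-1β and 2.96, 2.72 and 2.47 in control. It was 2.42-fold higher with IL-1β than in control (adjusted p = 2.46e-05) and 1.87-fold higher in co-culture than in control (adjusted p = 0.000549), and its difference between co-culture and IL-1β was -0.31 (95% interval -0.54 to -0.07, adjusted p = 0.0627). Ptgfr, the prostaglandin F receptor gene, stood at 3.47, 4.21 and 4.35 in co-culture, 5.44, 4.86 and 5.34 with IL-1β and 2.79, 2.66 and 2.59 in control. It was 1.95-fold higher with IL-1β than in control (adjusted p = 2.62e-05), 1.30-fold lower in co-culture than with IL-1β (adjusted p = 0.0171) and higher in co-culture than in control (log2 change 0.44, adjusted p = 0.00175).

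The EP1 gene Ptger1 was at 1.41 to 1.48 FPKM in co-culture, 1.10 to 1.38 with IL-1β and 1.35 to 2.49 in control. Its call as lower with IL-1β was marginal (-0.36, adjusted p = 0.0444) and its libraries overlapped. The EP2 gene Ptger2 was at 1.30 to 2.22 FPKM in co-culture, 1.73 to 2.25 with IL-1β and 2.05 to 2.49 in control and was called in none of the comparisons. Ptger3, Tbxa2r and Ptgdr2 (receptors for prostaglandin E, thromboxane and prostaglandin D) failed the filter, with no library above 0.49 FPKM. With IL-1β the levels ran in the order Ptgir, Ptgfr, Ptger4, Ptger2 and Ptger1, where only Ptger4 and Ptger2 overlapped. In control the order was the same, but each gene overlapped its neighbour.

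**Figure D4:**
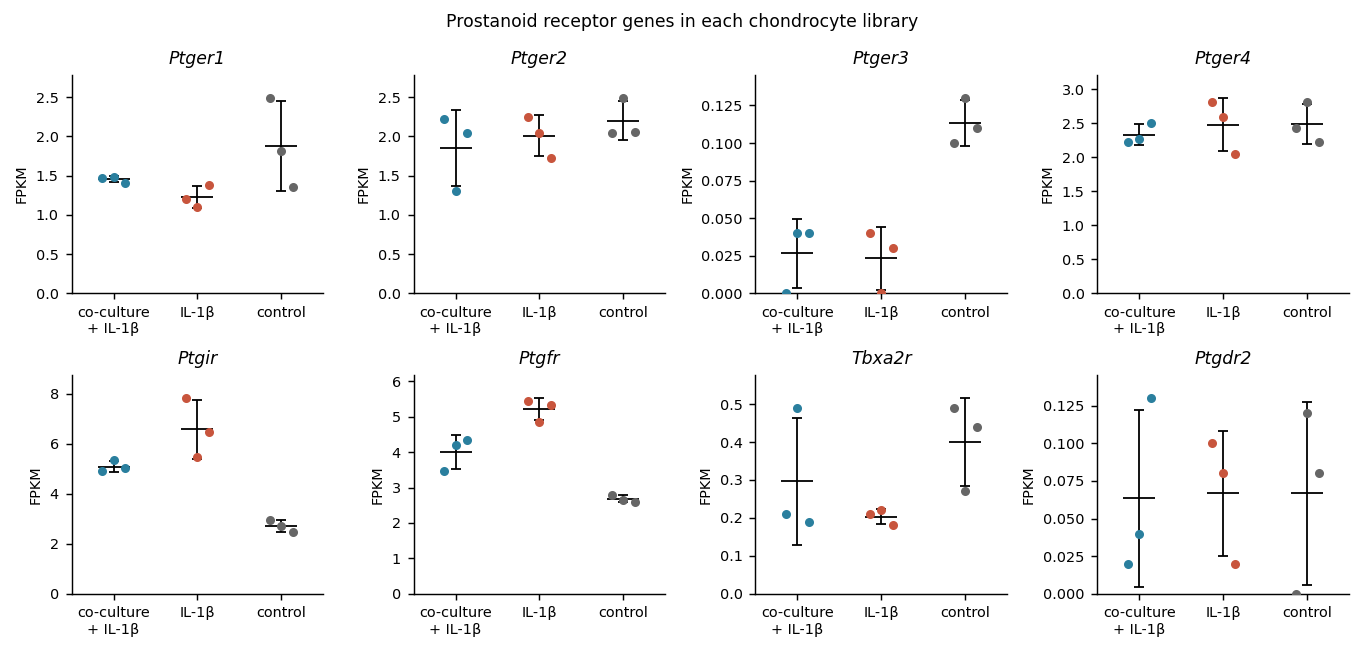
FPKM (linear axes from 0, each with its own range) of 8 prostanoid receptor genes in every library by group. Points are libraries, with mean and SD (n = 3). Ptgir and Ptgfr sat higher in the IL-1β and co-culture libraries than in control, Ptger2 and Ptger4 overlapped in all groups, and Ptger3, Tbxa2r and Ptgdr2 stayed at or below 0.49 FPKM.

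Further pathway genes were read from lists. For this and each later list, the shares of all tested genes were 26.5% higher and 20.2% lower with IL-1β against control. They were 11.9% and 10.1% for co-culture against IL-1β, and 21.8% and 12.2% for co-culture against control. Of 9 genes in the table listed as other prostanoid synthases, 4 were tested. With IL-1β 3 rose (median log2 change 0.74, against 0.02 over all tested genes), and 4 were lower in co-culture than with IL-1β (median -0.65, against 0.02). The changes with IL-1β were 0.57 for Akr1b1, 1.87 for Akr1b8, 0.91 for Akr1b10 and 0.28 for Fam213b (not called, adjusted p = 0.0663). In co-culture against IL-1β they were -0.36, -1.57, -0.93 and -0.36 in that order. Whether Akr1b8 and Akr1b10 make prostaglandins was not tested. Akr1b1, whose human counterpart can make prostaglandin F, stood at 232 ± 4.45 FPKM in co-culture, 299 ± 16.2 with IL-1β and 201 ± 4.37 in control (SD, n = 3 each). It was called higher with IL-1β than in control (adjusted p = 1.29e-06), lower in co-culture than with IL-1β (adjusted p = 0.000144) and higher in co-culture than in control (adjusted p = 0.00276). The aldo-keto reductase gene Akr1b8 stood at 268 ± 7.32 in co-culture, 796 ± 48.1 with IL-1β and 217 ± 10.7 in control, a 3.67-fold rise with IL-1β (adjusted p = 8.71e-10) and a level 2.97-fold lower in co-culture than with IL-1β (adjusted p = 9.46e-08). It belongs to a family of close copies (Akr1b10 among them), between which the counting could have divided reads. Akr1b10 itself stood at 0.377 ± 0.220 FPKM in co-culture, 1.63 ± 0.480 with IL-1β and 0.393 ± 0.189 in control. It was called higher with IL-1β than in control (adjusted p = 0.00142) and lower in co-culture than with IL-1β (adjusted p = 0.00347). Only its IL-1β libraries reached 1 FPKM. It thus passed the filter through the group in which it was high, and these calls are descriptions. Fam213b, a prostaglandin F synthase gene, was called lower in co-culture than with IL-1β (-0.36, adjusted p = 0.046). Genes of the prostaglandin D and thromboxane synthases (Ptgds, Hpgds and Tbxas1) did not exceed 0.17 FPKM in any library.

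Of 6 tested genes of prostaglandin transport and other breakdown, 2 rose and 2 fell with IL-1β, 0 were higher and 2 lower in co-culture than with IL-1β, and 2 were higher and 3 lower in co-culture than in control. Their median log2 changes were -0.19, -0.13 and -0.26 in these comparisons, against 0.02, 0.02 and 0.04 over all tested genes. Ptgr1, a reductase that acts after Hpgd, did not follow Hpgd: it stood at 255.5 ± 5.77 FPKM in co-culture, 297 ± 8.30 with IL-1β and 383 ± 13.5 in control. It was lower with IL-1β than in control (-0.37, adjusted p = 1.11e-05) and lower again in co-culture than with IL-1β (-0.21, adjusted p = 0.00156). The prostaglandin uptake transporter gene Slco2a1 stood at 5.15 ± 0.0874 in co-culture, 5.69 ± 0.160 with IL-1β and 3.92 ± 0.300 in control. It was called higher than control both with IL-1β (adjusted p = 0.000142) and in co-culture (adjusted p = 0.00192). The transporter gene Slco3a1 stood at 5.29 ± 0.222 FPKM in co-culture, 6.63 ± 0.103 with IL-1β and 7.94 ± 0.986 in control. It was called lower with IL-1β than in control (adjusted p = 0.0327), in co-culture than with IL-1β (adjusted p = 0.0237) and in co-culture than in control (adjusted p = 0.000604). Abcc4, an exporter of prostaglandins, was called only in co-culture against control (-0.31, adjusted p = 0.00373). The reductase gene Ptgr2 was slightly higher than control with IL-1β (0.12, adjusted p = 0.0357) and in co-culture (0.15, adjusted p = 0.0155).

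Of 20 tested genes of other phospholipases and arachidonate handling, 8 rose and 5 fell with IL-1β, 3 were higher and 6 lower in co-culture than with IL-1β, and 7 were higher and 5 lower in co-culture than in control. Their median log2 changes were 0.10, 0.01 and 0.12, against 0.02, 0.02 and 0.04 over all tested genes. Annexin A1 (Anxa1), known as an inhibitor of phospholipase A2, stood at 847 ± 29.7 FPKM in co-culture, 720.1 ± 15.0 with IL-1β and 939 ± 24.6 in control. It fell with IL-1β (adjusted p = 6.66e-06) and was higher in co-culture than with IL-1β (adjusted p = 0.000789). Pla2g7, a phospholipase that cleaves platelet-activating factor, stood at 3.42 ± 0.471 FPKM in co-culture, 6.01 ± 0.467 with IL-1β and 2.06 ± 0.201 in control. It rose with IL-1β (adjusted p = 2.51e-06) and was lower in co-culture than with IL-1β (adjusted p = 0.000601). Acsl3, an acyl-CoA synthetase gene, stood at 34.3 ± 0.365 FPKM in co-culture, 29.4 ± 0.874 with IL-1β and 40.3 ± 0.505 in control, in the same group order as Anxa1. It fell with IL-1β (adjusted p = 1.69e-06) and was higher in co-culture than with IL-1β (adjusted p = 0.00103). Lpcat3, which returns arachidonic acid to membrane lipid, stood at 57.99 ± 2.42 in co-culture, 63.3 ± 1.14 with IL-1β and 45.1 ± 1.02 in control. It rose with IL-1β (adjusted p = 2.41e-06), was lower in co-culture than with IL-1β (adjusted p = 0.0329) and higher in co-culture than in control (adjusted p = 4.46e-05). The monoacylglycerol lipase gene Mgll stood at 1.92 ± 0.178 in co-culture, 3.04 ± 0.372 with IL-1β and 4.16 ± 0.286 in control. It was called lower in co-culture than with IL-1β (adjusted p = 0.00356) and than in control (adjusted p = 5.13e-05). With IL-1β it was also called lower than in control (-0.35, adjusted p = 0.0065). Acsl4, an acyl-CoA synthetase gene whose enzyme prefers arachidonic acid, was called higher than control both with IL-1β (0.31, adjusted p = 3.92e-05) and in co-culture (0.23, adjusted p = 0.000494). Its difference between co-culture and IL-1β was -0.07 (adjusted p = 0.152). Pla2g5, described with Pla2g2a, was called higher with IL-1β than in control (1.13, adjusted p = 2.16e-05) and lower in co-culture than with IL-1β (-0.68, adjusted p = 0.00215). Only the IL-1β libraries of Pla2g5 reached 1 FPKM, as was also so for Pla2r1, counted in this list. Both genes passed the filter through the group in which they were high, so their calls are descriptions.

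Lipoxygenases act on the same arachidonic acid, and 5-lipoxygenase starts the synthesis of leukotrienes. Alox5 (5-lipoxygenase), its activating protein gene Alox5ap, Ltc4s (leukotriene C4 synthase) and the other lipoxygenase genes Alox12 and Alox15 did not exceed 0.83 FPKM in any library. Lta4h, the leukotriene A4 hydrolase gene, was well above that, at 70.8 to 72.5 FPKM in co-culture, 72.5 to 76.7 with IL-1β and 67.7 to 71.1 in control. Of 5 tested genes on that list, 3 rose and 1 fell with IL-1β, 0 were higher and 1 lower in co-culture than with IL-1β, and 2 were higher and 0 lower in co-culture than in control (medians 0.11, -0.05 and 0.06). Mgst1, a microsomal glutathione transferase of the same protein family as Ptges, stood at 23.5 ± 4.19 FPKM in co-culture, 58.9 ± 1.59 with IL-1β and 5.15 ± 0.392 in control. It rose with IL-1β (3.29, adjusted p = 4.44e-09) and was lower in co-culture than with IL-1β (-1.30, adjusted p = 2.44e-05). Its relative Mgst2 stood at 102.5 ± 9.45 FPKM in co-culture, 111 ± 11.1 with IL-1β and 68.1 ± 3.00 in control. It was higher than control with IL-1β (0.69, adjusted p = 5.44e-05) and in co-culture (0.58, adjusted p = 0.000365), with a difference of -0.11 between co-culture and IL-1β (adjusted p = 0.342). The smaller calls for IL-1β against control were Lta4h (0.11, adjusted p = 0.0186) and Ephx2, the soluble epoxide hydrolase gene (-0.24, adjusted p = 0.0175).

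Genes that respond to cyclic AMP, the second messenger of EP4, EP2 and the prostacyclin receptor, were mixed. Of 13 tested, 5 rose and 1 fell with IL-1β, 1 was higher and 1 lower in co-culture than with IL-1β, and 4 were higher and 2 lower in co-culture than in control (medians 0.07, -0.02 and 0.07). Pde4b, a phosphodiesterase that breaks down cyclic AMP, stood at 13.5 ± 1.27 FPKM in co-culture, 20.9 ± 0.261 with IL-1β and 7.02 ± 0.281 in control. It rose with IL-1β (1.45, adjusted p = 2.87e-08) and was lower in co-culture than with IL-1β (-0.60, adjusted p = 1e-04). Fos stood at 4.48 ± 0.371 FPKM in co-culture, 3.22 ± 0.172 with IL-1β and 9.10 ± 1.31 in control. It fell with IL-1β (-1.25, adjusted p = 2.12e-06) and was higher in co-culture than with IL-1β (0.38, adjusted p = 0.016). Rgs2, a regulator of G-protein signalling, stood at 12.03 ± 1.31 FPKM in co-culture, 12.6 ± 2.16 with IL-1β and 5.45 ± 1.67 in control. It was higher than control with IL-1β (adjusted p = 0.000558) and in co-culture (adjusted p = 0.00127), and its difference between co-culture and IL-1β was -0.06 (adjusted p = 0.859). The phosphodiesterase gene Pde4d was likewise called higher than control with IL-1β (0.56, adjusted p = 0.00032) and in co-culture (0.48, adjusted p = 0.00131), with -0.07 between co-culture and IL-1β (adjusted p = 0.583). Per1, a clock gene, was called higher with IL-1β than in control (0.25, adjusted p = 0.0172), and Atf3, a stress-induced transcription factor gene, lower in co-culture than in control (-0.59, adjusted p = 0.0125).

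The genes most alike in pattern were ranked by Pearson's r of log2(FPKM + 1) over the 9 libraries, among 8237 named genes averaging 5 FPKM or more. For Ptgs2 they were Tmem2 (r = 0.9996), Pld1 (0.9990), Irak3 (0.9989), Emilin1 (0.9984) and Ccl20 (0.9983). For Ptges they were Cxcl16 (0.9997), Ccl2 (0.9992), Ccl20 (0.9991), Il6 (0.9990) and Slc39a14 (0.9990), 4 of them genes of chemokines or cytokines. For Hpgd they were PVR (0.9958), S100a11 (0.9926), Cd24 (0.9925), Tm4sf1 (0.9873) and Itgb1 (0.9859). The 9 points share 3 groups, so these values describe the order and spacing of the group means.

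Prostaglandins are also made by cells other than chondrocytes, and markers of such cells were read in the same libraries. In each group 5 of 9 macrophage markers stayed under 1 FPKM in every library. The summed FPKM was 21.7 to 22.1 in co-culture, 22.6 to 24.97 with IL-1β and 25.5 to 26.03 in control. These sums hid opposite moves among the 4 markers that passed the filter. With IL-1β against control, Cd14 (log2 change 0.38, adjusted p = 0.000105) and Cd68 (0.63, adjusted p = 3.28e-05) were called higher. Lyz2 was called lower (-1.78, adjusted p = 3.25e-07), and Adgre1 was not called (-0.17, adjusted p = 0.186). In co-culture against IL-1β, Cd14 (-0.18, adjusted p = 0.0209) and Cd68 (-0.34, adjusted p = 0.00531) were called lower, and Lyz2 and Adgre1 were not called. All 5 mast cell markers in the table were below 1 FPKM in every library (sums of 0.51 to 1.02 in co-culture, 0.88 to 1.17 with IL-1β and 1.41 to 1.47 in control). The 7 endothelial markers summed to 9.31 to 10.2 FPKM in co-culture, 9.33 to 9.97 with IL-1β and 12.85 to 13.9 in control. Of these 7, 2 passed the filter (Egfl7 and Erg), and the others did not exceed 0.59 FPKM. Most of the sum was Egfl7, at 7.96 ± 0.532 FPKM in co-culture, 8.24 ± 0.245 with IL-1β and 9.69 ± 0.421 in control. Erg stood at 0.890 ± 0.131, 0.567 ± 0.112 and 2.87 ± 0.236 in that order. The 12 dermal fibroblast markers summed to 903 to 1003 FPKM in co-culture, 1498 to 1565 with IL-1β and 538 to 545 in control. Of these 12, 7 passed the filter, and with IL-1β against control 4 were called higher and 1 lower. Of all tested genes 26.5% were called higher and 20.2% lower in that comparison. The sum moved mainly with the matrix genes Lum (359 ± 36.6 FPKM in co-culture, 764.5 ± 26.1 with IL-1β and 87.8 ± 3.29 in control) and Dcn (194 ± 9.49 FPKM in co-culture, 324 ± 10.9 with IL-1β and 32.45 ± 1.75 in control). The other markers called higher with IL-1β than in control were Twist2 (0.75, adjusted p = 4.45e-07) and Pdgfra (0.15, adjusted p = 0.00739). Twist2 stood at 37.7 ± 1.77 FPKM in co-culture, 40.6 ± 1.36 with IL-1β and 23.7 ± 0.918 in control. Thy1 stood at 290.0 ± 12.7 FPKM in co-culture, 313 ± 2.55 with IL-1β and 323 ± 7.95 in control. Dpt was called lower with IL-1β than in control (-0.35, adjusted p = 0.00806). The 8 skeletal muscle markers all rose with IL-1β, with sums of 373 to 414 in co-culture, 383 to 401 with IL-1β and 172 to 178 in control. The part of these other cell types in the results on prostaglandin genes was not tested, and in bulk RNA fewer cells of a type cannot be told apart from less RNA per cell.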

How the data were processed

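RNA-seq of 9 rat chondrocyte libraries was analysed. The authors deposited FPKM per gene, rounded to 2 decimals, with 1 column per library, per the file headers. The build named in the submitters' processing notes is GRCm38, a mouse build. Of the gene identifiers 93.2% matched the rat RefSeq table (GRCr8), and no coordinates of the files' own build are used. The aligner, the counter and the gene models: not given in the sources used here. No counts were given and absolute depth is unknown. Steps between low values were compared for 12 to 18 genes per library. Only genes with near-equal steps were kept, so the comparison cannot show whether depth differed. Some genes (55) are at 0 in a library and at 5 FPKM or more in another, so a 0 may be a failed estimate; none of the 10 genes has a 0.

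Genes reaching 1 FPKM in 3 or more libraries were fitted on log2(FPKM + 1) with limma 3.58.1 (R 4.3.3; mean-variance trend, all 9 libraries, two-sided, Benjamini-Hochberg over 11732 genes within each of 3 comparisons). This scale understates the change of low genes. Ratios were tested with scipy 1.17.1. The fit was tested on simulated data. Alternatives were pseudocounts, filters, scalings, no trend, only the 6 libraries compared, a replicate block and leaving out each library. The genes and lists were chosen with earlier results of these data known. Named were the 10 genes, list members called (up to 5 per list and comparison by smallest p), all receptors, list members listed at low level and the 5 genes most alike in pattern to Ptgs2, Ptges and Hpgd. Same-numbered libraries were checked for pairing.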

Additional observations from a re-analysis of the deposited data

How the results depend on the processing

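Over 30 pairs of gene and comparison and 19 alternatives, 552 of 567 values kept direction and call, 12 lost the call, 3 gained one and 0 reversed. The 12 all concerned Ptges3 in co-culture against IL-1β (log2 change 0.07 to 0.13, adjusted p 0.0546 to 0.138). The 3 gains were Ptges3 for IL-1β against control with a common FPKM sum (adjusted p = 0.0232), and Ptges2 in co-culture, against IL-1β without control replicate 3 (adjusted p = 0.0415) and against control without control replicate 2 (adjusted p = 0.0341). With a filter on a mean of 5 FPKM, Ptger4 was not tested. The cause of these changes was not tested.

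The labels do not say whether libraries that share a replicate number were paired. Their deviations correlated at -0.091 to 0.085, and those of libraries with different numbers at -0.077 to 0.089. With 3 libraries per group these values do not settle the pairing. With the replicate number as a block, 5201 genes were called for IL-1β against control, 2266 for co-culture against IL-1β and 3681 for co-culture against control, compared with 5479, 2581 and 3981 without it. The block changed 1 call on the 10 genes (Ptges3 in co-culture against IL-1β, adjusted p = 0.0737). Low levels limit Ptger4 and the control values of Pla2g2a, and depth in reads is unknown.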
